A study of Homo sapiens with 4 samples.

Results

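The tetraspanins are a family of membrane proteins. All probes that the platform annotation assigned to the listed tetraspanin genes were taken, which gave 31 of 32 listed genes and 51 of the 47315 probes on the array, against 20044 genes in all. CD63 was not analysed here. Expression was measured in SW1990 and Panc-1, both established human pancreatic cancer cell lines, after sorting of cultured cells for CD166 (ALCAM), an adhesion molecule of the immunoglobulin superfamily. The 4 groups were the CD166+ and the CD166- cells of each line. CD166+ cells were those held by magnetic beads after labelling with an antibody to ALCAM, and CD166- cells were the unlabelled cells that passed through, and the labels name no other treatment. Each group had 1 array, so a difference within a line has no replicate check and no test.

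A tetraspanin crosses the membrane with a bundle of 4 helices and has a short and a large extracellular loop. The proteins bind integrins, proteases, immunoglobulin-superfamily proteins and each other, and thereby arrange their partners in the membrane, and several are abundant on extracellular vesicles. In epithelial cancers the family is known for both promoters of spread, such as CD151 and TSPAN8, and a suppressor of metastasis, CD82.

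Signals below are bead intensities after background correction and quantile normalization. A gene was called detected where the array's own detection p was under 0.01. Where a gene was detected on only 1 array of a pair, the other side was set to the lowest signal of a detected probe on its array, 37.4 to 41.5, or to its own signal where higher, and the difference was written as "at least". Genes were counted as apart when their signals differed by over 2-fold. ALCAM itself had signals of 293 and 47.3 in SW1990 CD166+ and CD166- cells and of 235 and 44.3 in Panc-1, 6.20-fold and 5.29-fold higher in CD166+ cells, in the direction of the labels.

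The SW1990 arrays stood apart from each other. Over 11640 genes the log2 signals of SW1990 CD166- correlated with r = 0.827 with SW1990 CD166+, and with r = 0.874 and 0.872 with Panc-1 CD166+ and CD166-. SW1990 CD166+ had the lowest correlations, with r = 0.834 and 0.817 with Panc-1 CD166+ and CD166-, and the lowest median in the deposited scaled table, 66.8 against 81.6 to 83.5. The Panc-1 arrays correlated with r = 0.989. Genes are not independent replicates in these values. Among the detected tetraspanins, 12 were nearer to SW1990 CD166+ and 11 (47.8%) nearer to Panc-1 CD166- on the SW1990 CD166- array, against 54.7% of all genes. Of the fibroblast and stellate cell markers, SW1990 CD166- detected 1 of 6, COL1A2, at a signal of 2148. COL1A1 and PDGFRB went the other way, with signals of 218 and 131 in SW1990 CD166+ and no detection in SW1990 CD166-, and COL3A1, DCN and LUM were not detected on any array. The summed signal of these 6 markers was 2294 on SW1990 CD166-, nearly all from COL1A2, and between 458 and 556 on the other arrays. Epithelial markers were detected for 5 or 6 of 7 genes on each array, without CDH1, and their summed signal was 6922 on SW1990 CD166- and between 11531 and 18147 elsewhere. KRT8 was higher on SW1990 CD166- than on SW1990 CD166+ (4691 against 4257), and KRT7, KRT18, KRT19, EPCAM and MUC1 were lower. The gap to the Panc-1 arrays came mainly from KRT19, at 741 on SW1990 CD166- and at 8679 and 9339 on Panc-1 CD166+ and CD166-. Leukocyte markers were detected for 2 of 6 (CD14 and ITGB2, without PTPRC), with summed signals of 346 to 406, and endothelial markers for 0 or 1 of 4, with summed signals of 91.0 to 123. The part of these differences between the SW1990 arrays in the results below was not tested. Whether both SW1990 arrays hold the same culture cannot be told from the files, and every SW1990 difference below is between the arrays so labelled. In sorted bulk cells, fewer cells that express a gene and less RNA per cell cannot be told apart.

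Promoters are shown for the 4 members on which the results turn. TSPAN8 and TSPAN6 had the largest differences between CD166+ and CD166- cells, and TSPAN5 and TSPAN13 the largest between the lines on average over both CD166 states. The 300 bases run from 250 before to 50 after the outermost RefSeq start (GRCh38.p14), 5′ to 3′ on the gene's strand. Capitals mark 3 motifs searched on both strands. The GC box was searched as GGGCGG. The CCAAT box was searched by the letters of its name. The TATA box was searched as TATAAA, which had no match in these windows. GC boxes may overlap each other.
TSPAN8 promoter, chr12:71157950-71158249, minus strand: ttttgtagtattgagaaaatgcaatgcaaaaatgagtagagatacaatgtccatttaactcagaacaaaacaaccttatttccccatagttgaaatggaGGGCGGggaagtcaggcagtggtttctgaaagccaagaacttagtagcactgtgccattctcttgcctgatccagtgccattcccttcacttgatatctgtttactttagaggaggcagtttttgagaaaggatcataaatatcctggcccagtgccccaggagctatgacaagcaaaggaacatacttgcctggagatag
TSPAN6 promoter, chrX:100637055-100637354, minus strand: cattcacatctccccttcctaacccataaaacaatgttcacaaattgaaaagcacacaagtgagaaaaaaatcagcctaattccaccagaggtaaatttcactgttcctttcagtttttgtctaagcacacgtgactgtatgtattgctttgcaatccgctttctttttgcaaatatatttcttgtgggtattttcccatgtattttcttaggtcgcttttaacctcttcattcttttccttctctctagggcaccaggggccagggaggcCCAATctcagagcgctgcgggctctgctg
TSPAN13 promoter, chr7:16753505-16753804, plus strand: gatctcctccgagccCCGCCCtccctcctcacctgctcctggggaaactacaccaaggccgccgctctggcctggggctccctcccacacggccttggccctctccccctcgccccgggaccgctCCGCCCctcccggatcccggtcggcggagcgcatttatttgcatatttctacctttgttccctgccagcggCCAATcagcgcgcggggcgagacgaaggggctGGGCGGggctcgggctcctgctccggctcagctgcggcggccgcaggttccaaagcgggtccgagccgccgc
TSPAN5 promoter, chr4:98658562-98658861, minus strand: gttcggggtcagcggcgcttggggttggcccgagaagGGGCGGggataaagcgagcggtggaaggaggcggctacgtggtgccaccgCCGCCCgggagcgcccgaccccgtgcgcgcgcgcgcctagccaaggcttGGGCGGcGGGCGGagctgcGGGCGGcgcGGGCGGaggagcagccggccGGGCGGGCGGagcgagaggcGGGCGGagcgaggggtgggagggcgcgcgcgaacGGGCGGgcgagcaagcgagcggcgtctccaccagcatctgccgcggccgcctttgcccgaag

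The TSPAN8 window held 1 CpG, 42.3% G and C and 1 GC box, and the TSPAN6 window held 5 CpG, 42.3% G and C and 1 CCAAT. The TSPAN13 window held 30 CpG with 3 GC boxes and 1 CCAAT, and the TSPAN5 window 50 CpG with 10 GC boxes. Over all 35116 windows of 27305 genes the median was 14 CpG, and 45.0% held a GC box, 34.6% CCAAT and 11.5% TATAAA. RefSeq windows matched 23 members, with 1 to 53 CpG, and 52.2% of these held a GC box. These are descriptions of letters, not of binding.

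Of the 31 tetraspanins, 23 (74.2%) were detected on at least 1 array, against 58.1% of all genes. A total of 15 were detected on all 4 arrays, 4 on 3 arrays, 3 on 2 arrays and 1 on 1 array. The 4 detected on 3 arrays were TSPAN6, TSPAN8, TSPAN10 and TSPAN13, and in each of them the missing array was SW1990 CD166-. The 3 detected on 2 arrays were TSPAN5, TSPAN18 and UPK1B, all on both Panc-1 arrays and on neither SW1990 array. TSPAN12, a cofactor of the Norrin receptor in retinal vessels, was detected on SW1990 CD166+ only, with a signal of 50.2. The 8 members without detection were CD37, CD53 and TSPAN32, which belong to blood cells, PRPH2, a structural protein of photoreceptor discs, and TSPAN2, TSPAN7, TSPAN11 and TSPAN16. TSPAN11 had 4 probes, TSPAN2, TSPAN7, CD37 and CD53 had 2 each, and the others 1.

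**Figure D1:**
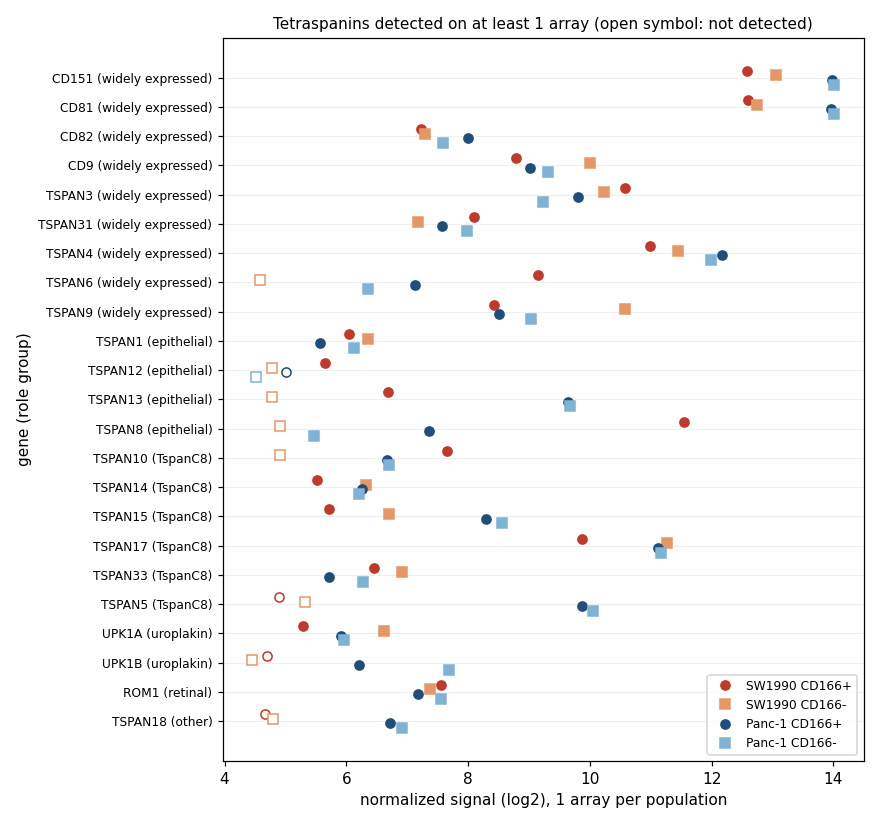
Normalized signal (log2, horizontal axis) of the 23 tetraspanins detected on at least 1 array, with 1 symbol per array and open symbols where the gene was not detected. TSPAN8, TSPAN6, TSPAN10 and TSPAN13 have an open SW1990 CD166- symbol, and TSPAN5, TSPAN18 and UPK1B have open symbols on both SW1990 arrays. Distances count within a gene only, since probes of different genes differ in brightness at equal RNA.

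In SW1990, 4 tetraspanins were over 2-fold higher in CD166+ cells (TSPAN8, TSPAN6, TSPAN10 and TSPAN13) and 4 were over 2-fold higher in CD166- cells (TSPAN9, TSPAN17, UPK1A and CD9), out of 20 detected. These are 20.0% in each direction, and over all 10783 genes detected 13.6% lay over 2-fold toward CD166+ cells and 14.2% toward CD166- cells. The median log2 difference (CD166+ minus CD166-) was -0.23 over the 20 members and -0.0019 over all genes, and the median size without sign was 0.86 and 0.57. All 4 members higher in CD166+ cells were below detection in CD166- cells, while all 4 higher in CD166- cells were detected on both arrays. In Panc-1, 1 of 22 detected members was over 2-fold higher in CD166+ cells (TSPAN8) and 1 in CD166- cells (UPK1B), or 4.55% each, against 0.598% and 0.408% of 10532 genes. The median size of the Panc-1 differences was 0.28 over the members and 0.16 over all genes. The only spread that could be measured within a comparison was that between probes of a gene, with an SD of the log2 difference of 0.44 in SW1990 and 0.22 in Panc-1. It covers probe error and not the variation between cultures or sorts.

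TSPAN8, a tetraspanin of gastrointestinal epithelium linked to motility of carcinoma cells, had a signal of 2995 in SW1990 CD166+ and was undetected in SW1990 CD166- at 29.98. It reached 164 in Panc-1 CD166+ and 44.2 in Panc-1 CD166- cells. TSPAN8 was thus high in CD166+ cells of both lines, at least 72.1-fold in SW1990 (log2 6.17) and 3.71-fold in Panc-1 (log2 1.89). Without background correction these log2 differences were 5.002 and 1.15. Its SW1990 CD166+ signal was 18.3-fold above that of Panc-1 CD166+ cells. It was among the genes the study itself picked from these arrays, so its difference on them is no independent evidence. The study then also measured TSPAN8 mRNA by qRT-PCR to check the arrays, and reports over-expression in CD166+ cells.

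The Panc-1 difference of TSPAN8 has a companion value. For 8 other genes with a background-corrected signal of at least 3000 in SW1990 CD166+ and a detection p of at least 0.05 in Panc-1 CD166-, the excess on the Panc-1 CD166+ array over Panc-1 CD166- was a median of 2.70% (range 1.09 to 5.87%) of the SW1990 CD166+ signal. The excess of TSPAN8 in the same unit was 3.18%. With 2.70% of the SW1990 CD166+ signal subtracted from the Panc-1 CD166+ array, the TSPAN8 difference in Panc-1 was 0.54 on the log2 scale instead of 1.89, under 2-fold. Unlike the 8 genes, TSPAN8 was detected in Panc-1 CD166- cells. The source of the excess, for TSPAN8 and for the 8 genes, was not tested.

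TSPAN6, a widely expressed member found in endosomes and known as a brake on innate antiviral signalling, had a signal of 565 in SW1990 CD166+, was undetected in SW1990 CD166- at 23.8, and had 139.5 in Panc-1 CD166+ and 82.1 in Panc-1 CD166- cells. Both lines were higher in CD166+ cells, by at least 13.6-fold in SW1990 and by 1.70-fold in Panc-1, the latter under the threshold. The SW1990 bound, 3.77 on the log2 scale, was 2.70 without background correction, 2.58 on the scaled table and 2.48 with the mean over probes. Its second probe was also higher in SW1990 CD166+ cells, by at least 1.20 on the log2 scale. The Panc-1 excess of TSPAN6 was 8.38% of its SW1990 CD166+ signal.

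TSPAN10, a TspanC8 member that is prominent in pigmented cells, had signals of 201 in SW1990 CD166+, 29.97 (undetected) in SW1990 CD166-, 102 in Panc-1 CD166+ and 104 in Panc-1 CD166- cells. It was at least 4.85-fold higher in SW1990 CD166+ cells, and its Panc-1 values lay 1.02-fold apart. TSPAN13, reported in tumours of epithelial origin and as a partner of a voltage-gated calcium channel, had signals of 103 in SW1990 CD166+, 27.4 (undetected) in SW1990 CD166-, 801 in Panc-1 CD166+ and 813 in Panc-1 CD166- cells. The SW1990 difference was at least 2.49-fold, and the Panc-1 values lay 1.01-fold apart. TSPAN13 fell under 2-fold in SW1990 without background correction (log2 0.73) and with the mean over its probes (0.61).

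Among the members higher in SW1990 CD166- cells, TSPAN9, known from platelets, had the largest difference. Its signals were 342 in SW1990 CD166+, 1533 in SW1990 CD166-, 364 in Panc-1 CD166+ and 524 in Panc-1 CD166- cells. The SW1990 CD166- array was the high one, 4.48-fold above SW1990 CD166+, and Panc-1 CD166- lay 1.44-fold above Panc-1 CD166+.

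CD9, a partner of integrins and of the EWI proteins and a vesicle marker, had signals of 440 in SW1990 CD166+, 1019.8 in SW1990 CD166-, 517 in Panc-1 CD166+ and 636 in Panc-1 CD166- cells. The CD166- cells of SW1990 exceeded the CD166+ cells 2.32-fold, and those of Panc-1 1.23-fold. The second CD9 probe was 0.66 higher in SW1990 CD166- on the log2 scale but 0.22 higher in Panc-1 CD166+ cells, against the first probe there, and in SW1990 the mean over both probes (0.94) was under 2-fold.

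UPK1A, which with its partners forms the plaques of the bladder surface, had signals of 39.2 in SW1990 CD166+, 98.7 in SW1990 CD166-, 60.0 in Panc-1 CD166+ and 62.3 in Panc-1 CD166- cells. The 2.52-fold difference in SW1990 lay near the detection floor and fell to 0.72 on the log2 scale without background correction. UPK1B, its relative, was undetected in SW1990 (25.9 and 22.0) and had signals of 74.4 in Panc-1 CD166+ and 207 in Panc-1 CD166- cells. No other tetraspanin passed 2-fold toward CD166- cells in Panc-1, where the UPK1B difference was 2.78-fold. The other uroplakins, UPK2, UPK3A and UPK3B, were not detected on any array.

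**Figure D2:**
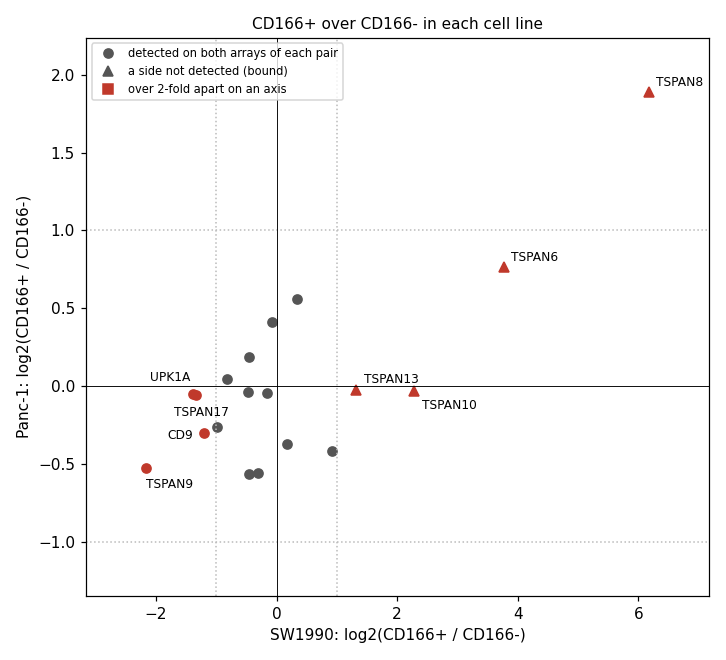
The log2 difference between CD166+ and CD166- cells in SW1990 (horizontal axis) against that in Panc-1 (vertical axis) for the 19 tetraspanins detected in both lines, with dotted lines at 2-fold and triangles where 1 side was not detected. TSPAN8 and TSPAN6 lie up and to the right, TSPAN10 and TSPAN13 lie to the right at Panc-1 values of -0.03 and -0.02, and TSPAN9 lies farthest to the left. UPK1B is not shown because it was below detection in SW1990.

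The TspanC8 members bind ADAM10, a protease that sheds Notch, cadherins and other surface proteins, and guide its exit from the endoplasmic reticulum and its choice of substrate. Of the 6 members, 5 were detected in SW1990, with 1 over 2-fold higher in CD166+ (TSPAN10) and 1 in CD166- cells (TSPAN17), and 6 in Panc-1, where 0 were over 2-fold apart. These shares, 1 of 5 each way, stand beside 13.6% and 14.2% of all genes in SW1990, and 0 of 6 beside 0.598% and 0.408% in Panc-1. TSPAN17 had signals of 938 in SW1990 CD166+, 2461 in SW1990 CD166-, 2226 in Panc-1 CD166+ and 2308 in Panc-1 CD166- cells. SW1990 CD166+ was the low array, 2.62-fold below SW1990 CD166-, and both TSPAN17 probes gave nearly the same SW1990 difference, -1.39 and -1.35 on the log2 scale. TSPAN15, which directs ADAM10 to N-cadherin, lay just inside the threshold at 1.99-fold, with signals of 52.3 in SW1990 CD166+ and 104 in SW1990 CD166- cells, and 314 and 377 in those of Panc-1. TSPAN14 and TSPAN33 were 1.76-fold and 1.37-fold higher in SW1990 CD166- cells. In Panc-1 TSPAN14 lay 1.03-fold apart and TSPAN33 was 1.48-fold higher in CD166- cells. ADAM10 itself was 2.64-fold higher in SW1990 CD166- cells, with signals of 71.3 and 188, and lay 1.09-fold apart in Panc-1.

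The remaining members detected on all 4 arrays stayed within 2-fold between CD166+ and CD166- cells in both lines. CD81, which serves as a receptor of hepatitis C virus, was 1.11-fold higher in SW1990 CD166- and 1.03-fold in Panc-1 CD166- cells. CD151, the partner of the laminin-binding integrins, was 1.39-fold and 1.03-fold higher in CD166- cells, SW1990 first, and its 3 probes disagreed in SW1990 (log2 -0.48 to 0.29). CD82 lay 1.05-fold and 1.33-fold apart, and TSPAN4, a builder of migrasomes, 1.37-fold and 1.14-fold, and in SW1990 the probes of each disagreed in direction. TSPAN3 was higher in CD166+ cells of both lines, by 1.27-fold and 1.48-fold, with both probes in that direction. TSPAN31 went opposite ways, 1.88-fold toward CD166+ cells in SW1990 and 1.33-fold toward CD166- cells in Panc-1. TSPAN1 was higher in CD166- cells by 1.24-fold and 1.47-fold in the same order of lines. ROM1, a photoreceptor disc protein, lay 1.13-fold and 1.29-fold apart.

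**Figure D3:**
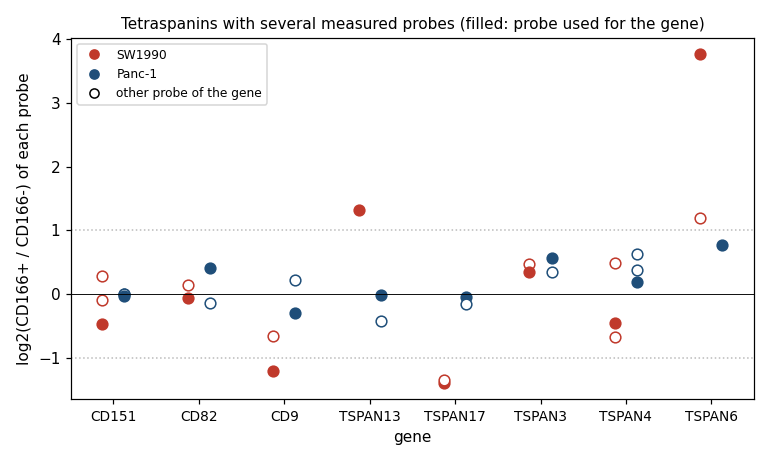
The log2 difference between CD166+ and CD166- cells for each measured probe of the 8 tetraspanins with several such probes in at least 1 line, for SW1990 (red) and Panc-1 (blue), filled where the probe represents the gene. TSPAN17 and TSPAN3 probes lie on 1 side of 0, and those of CD151, CD82 and TSPAN4 lie on both sides in SW1990. In Panc-1 those of CD9, CD82 and CD151 lie on both sides.

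Across both lines, limma with the cell line as a block called 0 of 10367 genes between CD166+ and CD166- cells (0%) at an adjusted p under 0.05, and 0 of 22 tested tetraspanins. At an unadjusted p under 0.05 the fit held 160 genes, among them TSPAN8 and TSPAN6, and the t-test of the methods held 132 genes with 0 tetraspanins. The fit took undetected signals as measured, so its differences and SEs for members with an undetected array rest in part on background-level values, and the bounds given above stand for their size. The SEs are limma's moderated ones, drawn toward the variance of all fitted genes, and do not measure the spread between the 2 pairs of a gene. TSPAN8 differed by 4.27 ± 1.17 on the log2 scale (moderated SE, 2 pairs), with SW1990 CD166- undetected. As measured, its difference was 6.64 in SW1990 and 1.89 in Panc-1. TSPAN8 had a limma adjusted p of 0.922, higher in CD166+ in 2 of 2 lines. TSPAN6, undetected on the same array and 4.57 as measured in SW1990, differed by 2.67 ± 0.96 (moderated SE, 2 pairs) with the same limma adjusted p of 0.922. Among members lower in CD166+ cells TSPAN9 had the largest difference in this fit, at -1.34 ± 0.53 (moderated SE, 2 pairs). The fit has 1 residual degree of freedom, and an exact test on 2 pairs cannot go below p = 0.5.

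The same 4 arrays also allow SW1990 to be set against Panc-1 within each CD166 state. In CD166+ cells, 2 of 23 detected members were over 2-fold higher in SW1990 (TSPAN8 and TSPAN6) and 8 (34.8%) in Panc-1 (TSPAN4, TSPAN5, TSPAN13, TSPAN15, TSPAN17, TSPAN18, CD81 and CD151). Over all 11119 genes these shares were 12.9% and 14.2%. In CD166- cells, 1 of 22 was over 2-fold higher in SW1990 (TSPAN9) and 7 (31.8%) in Panc-1 (TSPAN5, TSPAN10, TSPAN13, TSPAN15, TSPAN18, CD81 and UPK1B), against 10.6% and 12.1% of 10694 genes. The median log2 difference (SW1990 minus Panc-1) was -0.62 over the members in CD166+ and -0.42 in CD166- cells, and 0 and 0.0073 over all genes. The CD166+ split depended on the scaling, since median scaling gave 4 and 4. It also moved the median of all genes up by 0.21, and TSPAN4, TSPAN17, CD81 and CD151 were then under 2-fold. In CD166- cells TSPAN10 fell under 2-fold without background correction (log2 -0.73), with an offset of 50 (-0.87) and on the scaled table (-0.81).

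TSPAN5, a TspanC8 member known for promoting Notch signalling with ADAM10, had the largest difference between the lines. It was undetected in SW1990 CD166+ (29.7) and SW1990 CD166- cells (39.9), and had signals of 933 in Panc-1 CD166+ and 1061 in Panc-1 CD166- cells. Panc-1 was thus at least 23.9-fold and 25.6-fold higher in the CD166+ and CD166- cells. TSPAN13, described above, was 7.75-fold and at least 19.6-fold higher in Panc-1, and TSPAN15 was 6.003-fold and 3.63-fold higher. TSPAN18, a regulator of store-operated calcium entry in endothelial cells, was undetected in SW1990 CD166+ (25.4) and SW1990 CD166- cells (27.8) and had signals of 105 and 120 in Panc-1, at least 2.69-fold and 2.89-fold higher. These fell under 2-fold without background correction (log2 -0.78 and -0.87) and with the mean over probes (-0.34 and -0.38), and in CD166- cells on the scaled table (-0.95).

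CD81 and CD151, which stayed within 2-fold between the sorted populations, differed between the lines. CD81 had signals of 6175 and 6868 in SW1990 CD166+ and CD166- cells and of 15939.8 and 16435 in Panc-1, 2.58-fold and 2.39-fold higher in Panc-1. CD151 signals in the same order were 6137 and 8549 for SW1990, then 16133 and 16565 for Panc-1, 2.63-fold and 1.94-fold higher in Panc-1. All 3 CD151 probes were higher in Panc-1, by 1.39 to 1.80 on the log2 scale in CD166+ cells. TSPAN4 had signals of 2034 in SW1990 CD166+, 2785 in SW1990 CD166-, 4631 in Panc-1 CD166+ and 4067 in Panc-1 CD166- cells. Panc-1 was 2.28-fold higher in CD166+ and 1.46-fold in CD166- cells. In CD166+ cells the detected TSPAN4 probes ranged from -1.63 to -0.15 on the log2 scale (SW1990 minus Panc-1). The mean over its probes there (-0.72) was under 2-fold. TSPAN9 lay 1.06-fold apart between the lines in CD166+ cells and was 2.93-fold higher in SW1990 in CD166- cells.

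Over both CD166 states, limma called 84 of 10367 genes between the lines (0.81%), and 1 of 22 tetraspanins. The arrays of a line here were its CD166+ and CD166- fractions, not replicate cultures. The p-values of this fit therefore do not measure variation between cultures of SW1990 or of Panc-1. TSPAN5 was lower in SW1990 by -4.85 ± 0.37 on the log2 scale (moderated SE, 2 pairs), with a limma adjusted p of 0.0333. Both SW1990 values of TSPAN5 were undetected and entered as measured, so this size and SE rest on background-level signals on that side. TSPAN13 (undetected in SW1990 CD166-) followed at -3.92 ± 0.58 with a limma adjusted p of 0.0821, TSPAN18 (undetected on both SW1990 arrays) at -2.08 ± 0.36 with 0.111, and TSPAN15 at -2.22 ± 0.40 with 0.118. The TSPAN5 call was lost in the t-test of the methods (adjusted p = 0.133), without the filter on dim probes and without background correction.

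**Figure D4:**
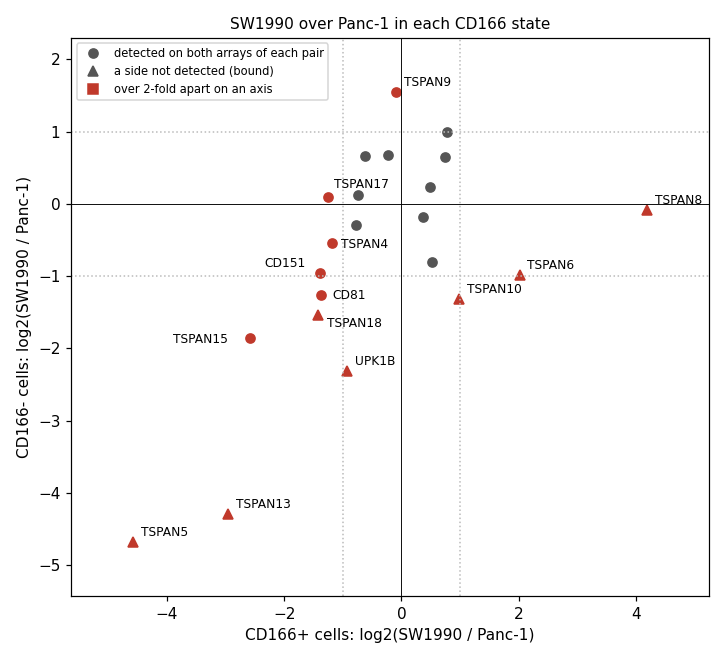
The log2 difference between SW1990 and Panc-1 in CD166+ cells (horizontal axis) against that in CD166- cells (vertical axis) for the 22 tetraspanins detected in both pairs, with dotted lines at 2-fold and triangles where a side was not detected. TSPAN5, TSPAN13, TSPAN15, TSPAN18 and CD81 lie past 2-fold toward Panc-1 on both axes, and TSPAN8 and TSPAN6 lie on opposite sides of 0 on them.

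RNA of genes whose proteins tetraspanins bind was also compared. In SW1990, 3 of 13 detected partner genes exceeded 2-fold toward CD166+ cells. They were CLDN7 (at least 4.23-fold), EPCAM (3.66-fold) and PTGFRN (at least 3.77-fold). CLDN7 and EPCAM are surface proteins of epithelia known from complexes with TSPAN8, and PTGFRN is a direct partner of CD9 and CD81. Another 5 were over 2-fold higher in SW1990 CD166- cells. These are 23.1% and 38.5% of the list, beside 13.6% and 14.2% of all genes, and its median log2 difference was -0.16. The hyaluronan receptor CD44 was 6.31-fold higher, with signals of 1940 and 12239. HBEGF, a growth factor that CD9 binds as its membrane precursor, was 5.95-fold higher, with signals of 40.3 and 240. ITGB1, the shared beta chain of the integrins that CD151 and CD9 bind, was 3.20-fold higher, and the sheddases ADAM10 and ADAM17 were 2.64-fold and 2.27-fold higher. No partner gene of 14 detected was over 2-fold apart in Panc-1, nor any of 13 detected vesicle genes. Over all genes only 0.598% and 0.408% were over 2-fold higher in Panc-1 CD166+ and CD166- cells, so these counts do not set the lists apart.

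Of 14 detected genes of vesicle formation, 0 were over 2-fold higher in SW1990 CD166+ and 3 (21.4%) in SW1990 CD166- cells. Over all genes these shares were 13.6% and 14.2%. The median log2 difference of the vesicle genes was 0.12. SDC4 and SDC1, the syndecans that load cargo through syntenin, were 8.56-fold and 4.96-fold higher in SW1990 CD166- cells. RAB27B, a GTPase of vesicle release, was 3.07-fold higher there. The counts depend on the threshold, since TSG101, CHMP4B and FLOT2 lay just inside it, 1.998-fold, 1.97-fold and 1.90-fold higher in SW1990 CD166+ cells. Toward SW1990 CD166- cells the largest difference inside the threshold was that of HGS, 1.64-fold. The L6 proteins also cross the membrane 4 times but are no true tetraspanins. TM4SF18 among them was undetected in SW1990 CD166+ at 23.0 and had a signal of 2891 in SW1990 CD166- cells, at least 74.0-fold higher, and TM4SF1 lay 1.17-fold apart. The palmitoyl transferases ZDHHC4 and ZDHHC6 lay within 1.04-fold in SW1990.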

How the data were processed

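Total RNA from the 4 sorted populations was labelled with biotin and hybridised to Illumina bead arrays, 1 per population. The authors deposited mean bead intensity values without normalization, made with BeadStudio 3.2.3, and a detection p-value per probe and array. The authors also deposited a table of intensity values scaled by 1 factor per array, 0.857 to 1.09, used as an alternative. The number of arrays limits the precision.

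Intensities were corrected and quantile normalized with neqc in limma 3.58.1 (R 4.3.3, offset 16). The platform annotation gave 30111 probes 1 gene, 8 several and 17196 none. Symbols were updated by Entrez number through RefSeq genes of GRCh38.p14. For a gene with several probes, the one brightest on average was used. Within a line differences over 2-fold were counted. Over both lines lmFit and eBayes were fitted to genes detected on at least 2 arrays. The line was the block, since both arrays of a line share it, with Benjamini-Hochberg adjustment over 10367 genes. Undetected signals entered this fit as measured. The fit was also run on simulated data with the same noise level for every gene and no line effect. These arrays differ in both, so that run does not show how the fit performs on them.

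The members, lists and alternatives were chosen with earlier results of these data known. All members were accounted for, with values on every array for those over 2-fold apart between CD166+ and CD166- cells and folds for those that stayed within 2-fold, and genes of the other lists were named when over 2-fold apart in a line. TM4SF1, TSG101, CHMP4B, FLOT2, HGS and the palmitoyl transferases were named outside this rule. The alternatives changed the background (left uncorrected, or offset 50), the scaling (by medians, or the scaled table), the detection limit (p under 0.05, or dim probes kept), the summary of a gene (averaged probes, or undetected values used as they are), the fold (1.5 or 3) and the fit (unblocked, with an intensity trend, as the t-test of the methods, or with 1 line omitted). A share of SW1990 CD166+ signal was also subtracted from the Panc-1 CD166+ array.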

Additional observations from a re-analysis of the deposited data

Results flagged for a closer look

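TSPAN10 and TSPAN13 exceeded 2-fold toward CD166+ cells in SW1990 and had values of the opposite sign in Panc-1. The log2 difference (CD166+ minus CD166-) of TSPAN10 was at least 2.28 in SW1990 and -0.03 in Panc-1, so that the lines differed by at least 2.31. That of TSPAN13 was at least 1.32 and -0.02, so that the lines differed by at least 1.34. With 1 array per population this difference was not tested, and the Panc-1 values given are within the SD of 0.22 between probes. The second TSPAN13 probe was undetected on both SW1990 arrays and had -0.43 in Panc-1, outside that SD.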

How the results depend on the processing

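No direction turned in any alternative run for the members over 2-fold apart. The threshold moved the counts most. At 1.5-fold, 2 of 22 members were higher in Panc-1 CD166+ than CD166- cells, against 2.54% of all genes. At that threshold 5 of 23 members in CD166+ and 5 of 22 in CD166- cells were higher in SW1990 than in Panc-1. Over all genes these shares were 23.5% and 22.1%. At 3-fold, 1 of 20 members was higher in SW1990 CD166- and 0 of 22 in Panc-1 CD166- cells, against 6.51% and 0.0285% of all genes. Between the lines, 3 of 23 were higher in Panc-1 in CD166+ cells, against 6.95%. In CD166- cells 0 and 4 of 22 were higher in SW1990 and in Panc-1, against 3.82% and 5.88%. In SW1990, median scaling gave 5 members toward CD166+ and 3 toward CD166- cells (4 and 4 in the main setting), and over all genes 20.6% and 10.6% in place of 13.6% and 14.2%. Between the lines in CD166+ cells it gave 4 and 4 members (2 and 8 in the main setting), and over all genes 19.6% and 10.6% in place of 12.9% and 14.2%. CD9 then had a log2 difference of -0.91 in SW1990. With the SW1990 CD166+ share subtracted, 0 of 22 members were higher in Panc-1 CD166+ than CD166- cells, against 0.408% of all genes. The counts stayed within 1.5 times under the other settings, within and between lines. UPK1A in SW1990 was at -0.86 with an offset of 50 and at -0.93 on the scaled table, TSPAN13 in SW1990 at 0.86 and 0.48, and TSPAN18 between the lines in CD166+ cells at -0.93 with an offset of 50 and at -0.34 with the mean over probes.

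Without the replicate block (the line), limma called 0 tetraspanins between CD166+ and CD166- cells and 1 between the lines, and in every alternative fitted the first count was 0, with 0 genes called and 55 to 331 genes at an unadjusted p under 0.05. Between the lines, an addition chosen after seeing the data, the count was 0 in the methods' t-test, 0 without the filter on dim probes, 0 without background correction and 3 on the scaled table, where 309 genes were called in place of 84, against 188 without the block, 13 without background correction, 4 in the methods' t-test and 0 without the filter, with 1674 to 2528 genes at an unadjusted p under 0.05 over these fits. The adjusted p of TSPAN5 ranged from 0.00377 to 0.249 over these fits, by limma and the methods' t-test. Leaving out a line gives the value of the other line, with no test. The cause of these moves was not tested. Dim members such as UPK1A, TSPAN12 and TSPAN14, near the floor of 37.4 to 41.5, are limited by signal over background.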
